A study of Danio rerio with 6 samples.

Results

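The spliceosomal RNA helicases are ATP-driven enzymes that rearrange the RNA and protein contacts of the spliceosome, the machine that removes introns from pre-mRNA. The genes were taken by symbol, with the U5 helicase snrnp200 kept apart: dhx8, dhx15, dhx16, dhx38 and dhx35 of the DEAH class and ddx23, ddx46, ddx41, ddx39b and ddx42 of the DEAD class, classes named after the amino acids of a motif in the helicase core. Of these 10 symbols, 9 matched an Ensembl identifier among the 26375 identifiers of the count files, and all 9 passed the filter on low counts that left 18487 genes to be tested. Ddx41 was not analysed here.

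The helicases act at several stages of splicing. DDX39B, DDX46 and DDX42 work where the U2 particle is brought to the branch site, DDX23 lets U6 replace U1 at the 5′ splice site, DHX16 and DHX38 remodel the active centre around the splicing reactions, and DHX8 and DHX15 release the spliced mRNA and take the remaining complex apart. These roles were worked out in budding yeast and in human cells, and they are given as background for the zebrafish genes of the same name. METTL16, the enzyme removed in the mutant, places N6-methyladenosine on a small set of RNAs that includes the U6 small nuclear RNA of the spliceosome.

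RNA was sequenced from zebrafish embryos at 3 days post fertilization (dpf) in 2 groups of 3 libraries. The mettl16-/- group (labelled as gene knockout) comes from a stable CRISPR/Cas9 line with a small deletion in mettl16 that is predicted to truncate the protein, and the sibling group is labelled mettl16+/+ and untreated. Both groups are in the AB background of the study's fish, and each library is a pool of tails cut from many embryos, with the caudal hematopoietic tissue (CHT, where blood stem cells expand) included and the heads kept for genotyping. The study's methods name the tissue tails and the labels name it trunk, both with the CHT, and it is called tails below. In such bulk RNA, fewer cells of a type and less RNA per cell cannot be told apart. No label says whether the pools of a group came from separate clutches, so the p-values speak for these pools only. They rest on the spread between the pools and on a variance estimate shared between genes. Where replicate number is entered as a block, the spread that same-numbered libraries share is taken out first. Small p-values of a blocked fit therefore lean on the spread of all genes, and more so where a replicate number is left out of both groups.

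The 6 libraries held 16239791 to 18541402 counted reads. Reads of mettl16 itself (ENSDARG00000055838) were 64, 59 and 86 in mettl16-/- tails and 104, 120 and 117 in sibling tails, so that all mutant libraries lay below all sibling libraries in CPM (read counts scaled to a common library total, with TMM, a trimmed-mean normalization, between libraries), at 4.15 ± 0.941 CPM in mettl16-/- tails against 6.44 ± 0.496 CPM in sibling tails (SD, n = 3 each). The log2 fold change was -0.63 (SE 0.211, adjusted p = 0.9999 from the quasi-likelihood test of edgeR, Benjamini-Hochberg), so the direction fits the labels but the gene was not called. Among markers of the tissues a tail holds, summed CPM of skeletal muscle genes was 73100 to 86100 in mettl16-/- tails and 61100 to 81100 in sibling tails, and that of dividing-cell genes 694 to 761 in mettl16-/- tails and 733 to 754 in sibling tails. Blood stem cell genes summed to 38.1 to 39.7 CPM in mettl16-/- tails and 39.1 to 44.9 CPM in sibling tails, with 4 of 5 tested genes lower. Lower too were 3 of 4 myeloid and 3 of 3 intestine genes, while 4 of 4 endothelium genes were higher. Of all genes tested, 49.1% were above 0. In these 4 lists 0 genes were called, with or without a block on replicate number. The same held for dividing-cell (6 of 8 lower), epidermis (4 of 5 higher), notochord (4 of 6 lower) and neural genes (3 of 6 lower). Lens and retina genes, markers of the head, summed to 3.63, 1.39 and 15.7 CPM in mettl16-/- replicates 1, 2 and 3. In sibling tails they summed to 1.23 to 4.97 CPM. Exocrine pancreas genes stood apart, at 20.2 to 34.0 CPM in mettl16-/- tails and 47.8 to 145 CPM in sibling tails, with 5 of 5 tested genes lower and 1 of them called, and 6 of 6 liver genes were lower (1820 to 2220 CPM in mettl16-/- tails against 1990 to 2590 CPM in sibling tails, 0 called). In the fit that blocks on replicate number and in which 4 helicases were called, 3 of the 5 pancreas genes (cela1.4, cpb1 and ctrb.1) and 3 of the 6 liver genes (fabp10a, fgb and tfa) were called lower. In that fit 2 of 5 muscle genes (acta1 and actc1b) and 1 of 6 erythroid genes (alas2) were called higher, and all genes of both lists stood above 0 without the block. Of all genes tested, the blocked fit called 0.395% lower and 0.649% higher, and the fit without the block called 0.0108% lower. The part of these tissue differences in the helicase values was not tested.

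Of the 9 helicases, 4 stood higher in every mettl16-/- library than in every sibling library, and the other 5 overlapped between the groups. Dhx16 rose by 0.79 on the log2 scale and was the 1 helicase past the threshold in the test without pairing (adjusted p = 0.0380, edgeR quasi-likelihood test with Benjamini-Hochberg adjustment over all genes). In that test 0.114% of all genes were called higher, 0.0108% lower and 0.124% in either direction. Same-numbered libraries of the 2 groups deviated together. With that number entered as a block, 4 helicases were called higher, namely dhx16, ddx23, dhx38 and dhx15. In the blocked fit 0.649% of all genes were called higher, 0.395% lower and 1.04% in either direction. With a replicate number left out, the blocked call held in all 3 fits for dhx16 and ddx23. It held in 1 of 3 for dhx38 and in 0 of 3 for dhx15. In the lower direction 0 helicases were called in either edgeR fit or by DESeq2 with no filter. In edgeR without the block, 0 were lower at an unadjusted p under 0.05. Of the 18487 genes tested, 186 were lower at such a p in that fit. DESeq2 with no filter called 17 of the 18487 lower. At these shares, 0 of 9 does not set the helicases apart from other genes. The 4 called with the block are the same 4 whose groups did not overlap. Both are read from the same libraries, so this is no separate evidence. Of all genes, 3.46% had all mettl16-/- libraries above all sibling libraries and 3.43% all below.

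The fitted log2 fold changes of the 9 ran between -0.08 and 0.79, with a median of 0.15 beside -0.00319 over all genes tested. Of these, 7 were above 0 and 2 below, so 77.8% of the helicases were higher in mettl16-/- tails beside 49.1% of all genes. The helicases were chosen with earlier results of these data known, so this comparison is no independent evidence. By class, 5 of 5 DEAH genes were above 0 with a median of 0.21, and 2 of 4 DEAD genes with a median of -0.02. At an unadjusted p under 0.05 in the fit without the block stood 3 of the 9 (dhx16, ddx23 and dhx38, all higher), beside 1.17% of all genes in that direction.

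**Figure D1:**
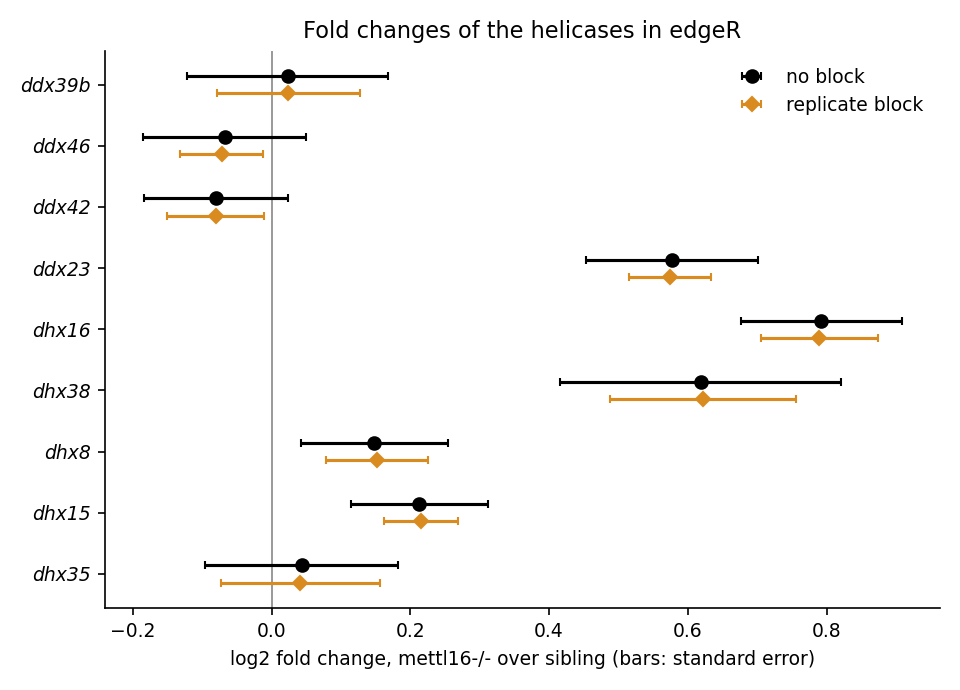
Log2 fold change (mettl16-/- over sibling) of the 9 helicases, ordered by their stage in splicing, with bars for the standard error. Black circles are the fit with no block and orange diamonds the fit with a replicate block; both fits give 0.79 for dhx16, and the 3 U2-stage helicases ddx39b, ddx46 and ddx42 lie between -0.08 and 0.02.

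At the stage where U2 meets the branch site, the 3 helicases were close to the sibling level. Ddx39b (ENSDARG00000036069), known in human cells as UAP56, helps U2 onto the pre-mRNA and also belongs to the TREX complex of mRNA export. Its level was 17.1, 13.9 and 14.4 CPM in mettl16-/- tails and 16.6, 13.0 and 15.1 CPM in sibling tails, and the groups overlapped, with replicate 1 the highest library in each. The fold was 1.02 (95% interval 0.812 to 1.27), a log2 fold change of 0.02 (SE 0.145).

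Ddx46 (ENSDARG00000099458), the counterpart of yeast Prp5, uses ATP to make U2 ready for the branch site. Its level was 63.8, 79.5 and 82.4 CPM in mettl16-/- tails and 72.5, 79.5 and 84.5 CPM in sibling tails. Replicate 1 was the lowest library of both groups and the highest library was a sibling one, with a fold of 0.954 (95% interval 0.796 to 1.14). Ddx42 (ENSDARG00000037928), whose human protein binds the U2 protein SF3B1, had 34.0, 38.6 and 38.3 CPM in mettl16-/- tails and 36.0, 40.1 and 41.3 CPM in sibling tails. The mutant library was the lower one at each of the 3 replicate numbers, but by no more than 0.11 on the log2 scale of the same-number ratios, and the fold was 0.946 (95% interval 0.806 to 1.11). The intervals of all 3 genes include 1, which does not show that the levels were the same.

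Ddx23 (ENSDARG00000021945), the counterpart of yeast Prp28, helps exchange U1 for U6 at the 5′ splice site, which is the site that the METTL16-modified stretch of U6 pairs with. It had 73.2, 83.9 and 97.0 CPM in mettl16-/- tails and 51.5, 55.9 and 62.8 CPM in sibling tails. The lowest mutant library was above the highest sibling library, and in both groups replicate 1 was the lowest and replicate 3 the highest. The means were 84.7 ± 11.9 CPM in mettl16-/- tails and 56.8 ± 5.71 CPM in sibling tails (SD, n = 3 each), a fold of 1.49 (95% interval 1.23 to 1.81).

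The log2 fold change of ddx23 was 0.58 (SE 0.124) with an adjusted p of 0.363 in edgeR's quasi-likelihood test without the block, and 0.57 (SE 0.0594) with an adjusted p of 4.49e-07 in edgeR with the block. The 3 same-number ratios were 0.51, 0.58 and 0.63 on the log2 scale. With the block, ddx23 stayed past the threshold when each replicate number was left out of both groups (adjusted p 2.57e-06 to 0.00111 in edgeR). Those fits hold fewer libraries and lean more on the variance estimate shared between genes. DESeq2 without a block and without a low-count filter gave it an adjusted p of 0.0211, where 0.179% of all genes were called higher and 0.256% in either direction.

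Dhx16 (ENSDARG00000013150), the counterpart of yeast Prp2, strips proteins from the activated spliceosome so that the first splicing reaction can begin. It had 35.9, 39.4 and 43.8 CPM in mettl16-/- tails and 22.7, 24.9 and 21.1 CPM in sibling tails. These values came from 574, 707 and 732 reads in mettl16-/- libraries and 385, 484 and 353 reads in sibling libraries. All mutant libraries lay above all sibling libraries, with a gap between the groups wider than the range within either. The means of 39.7 ± 3.97 CPM in mettl16-/- tails and 22.9 ± 1.88 CPM in sibling tails (SD, n = 3 each) gave a fold of 1.73 (95% interval 1.45 to 2.07). An exact two-sided permutation test of 3 libraries against 3 cannot go below p = 0.10. Every gene whose groups do not overlap reaches that value, dhx16 among them.

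Without the block, the call on dhx16 held in 1 of the 6 fits that left out 1 library. Its adjusted p in edgeR was 0.106, 0.150 and 0.174 without sibling replicate 1, 2 or 3, and 0.0312, 0.294 and 0.206 without mettl16-/- replicate 1, 2 or 3, while its log2 fold change stayed between 0.72 and 0.86. With the block, the adjusted p in edgeR was 7.85e-07, and 2.72e-06 to 0.00183 when each replicate number was left out of both groups. Those last fits hold fewer libraries and lean more on the variance estimate shared between genes. DESeq2 with no filter gave dhx16 an adjusted p of 5.82e-05.

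The GRCz12tu gene table places the 9 helicases on 7 chromosomes, and dhx16 alone shares its chromosome with mettl16. The table lists 203 protein-coding genes between mettl16 and dhx16, of 1029 on that chromosome. With the block, 8.44% of the 462 tested genes placed there were called, against 0.867% of tested genes placed elsewhere. Without the block, 2 of the 462 were called, dhx16 among them, beside 0.124% of all genes tested. Embryos sorted by their mettl16 genotype also differ by parental chromosome around the gene, and for dhx16 that difference and the loss of mettl16 cannot be told apart with these libraries. Ddx23, dhx38 and dhx15 lie on other chromosomes.

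**Figure D2:**
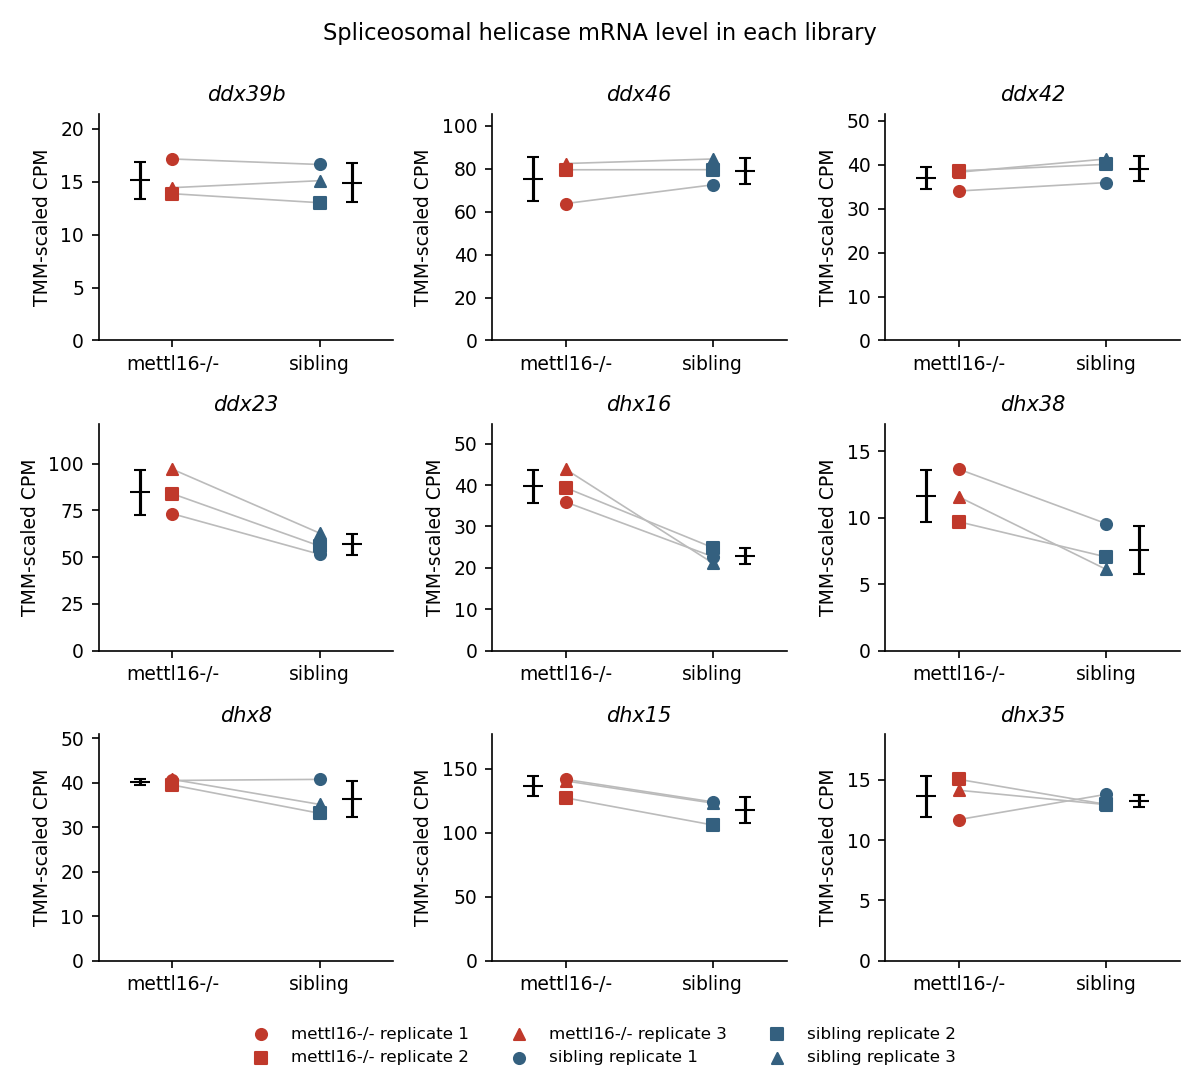
Level of each helicase in TMM-scaled CPM (vertical axis from 0, 1 panel a gene), mettl16-/- libraries in red on the left and sibling libraries in blue on the right, with grey lines joining libraries of the same replicate number and bars for mean ± SD (n = 3 each). In the panels of ddx23, dhx16, dhx38 and dhx15 all 3 mutant points are above all 3 sibling points, and in the other 5 the groups overlap.

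Dhx38 (ENSDARG00000100013), the counterpart of yeast Prp16, acts between the 2 reactions of splicing. Its 102 reads in sibling replicate 3 were the lowest count of any of the 9 in a library. It had 13.6, 9.69 and 11.6 CPM in mettl16-/- tails and 9.55, 7.04 and 6.11 CPM in sibling tails. The lowest mutant library (replicate 2) was only just above the highest sibling library (replicate 1), so the gap was small against a spread that made up 17.0% of the mutant mean and 23.5% of the sibling mean. Counting error alone would give 7.16% in mettl16-/- tails and 8.65% in sibling tails.

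The fold for dhx38 was 1.54 (95% interval 1.12 to 2.10), a log2 fold change of 0.62 (SE 0.203) with an adjusted p of 0.9999 in edgeR's quasi-likelihood test. With the replicate block it was called (adjusted p = 0.0126 in edgeR), and the 3 same-number ratios were 0.51, 0.46 and 0.92. With a replicate number left out, the call held in 1 of 3 fits: the blocked adjusted p in edgeR was 0.052 without number 1, 0.036 without number 2 and 0.402 without number 3. The log2 fold change in these fits was 0.68, 0.70 and 0.49, so it fell only without number 3.

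Dhx15 (ENSDARG00000015392), the counterpart of yeast Prp43, takes apart the spliceosome left after splicing and also works in ribosome assembly. It had the highest counts of the 9, with 142, 127 and 140 CPM in mettl16-/- tails and 124, 106 and 123.1 CPM in sibling tails. Replicate 2 was the lowest in both groups, and its mutant library still lay above every sibling library. The fold was 1.16 (95% interval 0.995 to 1.35), with a log2 fold change of 0.21 (SE 0.0989) and an adjusted p of 0.9999 in edgeR without the block. With the block the adjusted p was 0.0445 in edgeR, just past the threshold, and it was 0.106, 0.379 and 0.322 without replicate number 1, 2 or 3. The same-number ratios were close to each other, at 0.19, 0.26 and 0.19 on the log2 scale.

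Dhx8 (ENSDARG00000054707), the counterpart of yeast Prp22, frees the spliced mRNA. It had 40.5, 39.5 and 40.8 CPM in mettl16-/- tails and 40.8, 33.2 and 35.2 CPM in sibling tails, and the groups overlapped through sibling replicate 1. The fold was 1.11 (95% interval 0.941 to 1.305). The adjusted p of dhx8 in edgeR was 0.9999 without and 0.539 with the block.

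Dhx35 (ENSDARG00000063419) is found in catalytic spliceosomes of human cells, and its task there is less well defined. It had 11.7, 15.03 and 14.1 CPM in mettl16-/- tails and 13.8, 13.0 and 12.9 CPM in sibling tails. The lowest and the highest library both belonged to the mutant group, and dhx35 had a fold of 1.03 (95% interval 0.832 to 1.28).

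**Figure D3:**
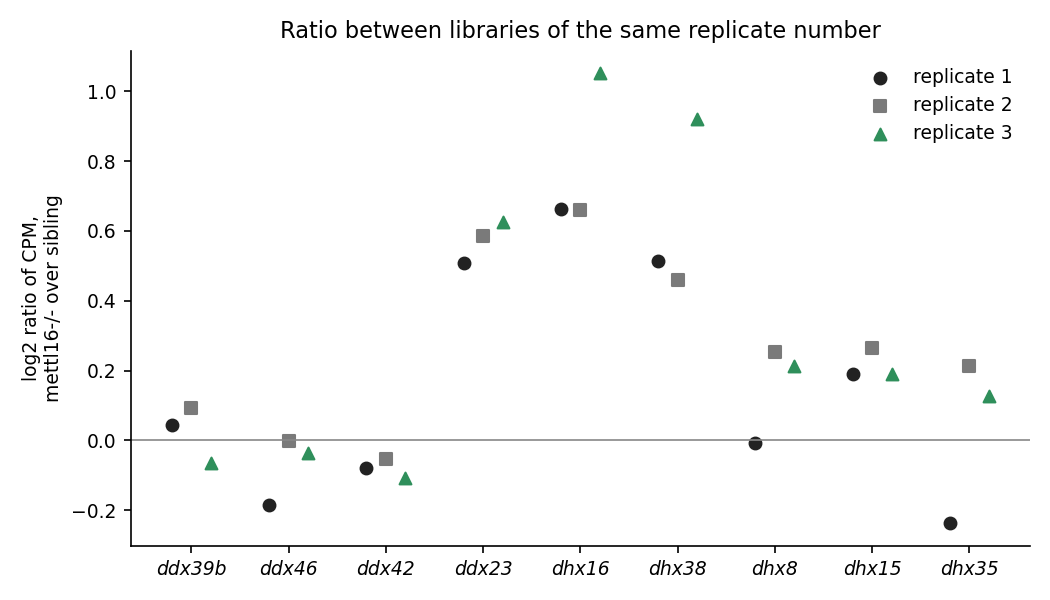
Log2 ratio of the mettl16-/- library over the sibling library of the same replicate number, with 3 points for each helicase and a line at 0. The points of ddx23 (0.51 to 0.63), dhx16 (0.66 to 1.05), dhx38 (0.46 to 0.92) and dhx15 (0.19 to 0.26) are all above 0, those of ddx42 and ddx46 are all at or below 0, and those of dhx8, dhx35 and ddx39b fall on both sides.

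Among the 4 helicases called with the block, the same-number ratios of dhx15 and ddx23 lay close together, and those of dhx16 and dhx38 were highest at replicate 3 (1.05 and 0.92). Of the other 5, ddx42 had 3 ratios close together (-0.08, -0.05 and -0.11), while replicate 1 of dhx8 (-0.01) and of dhx35 (-0.24) lay below replicates 2 and 3 of the same gene. Ratios above 0 at all 3 numbers occurred for 4 helicases, and for 15.0% of all genes tested. The lowest library carried the same number in both groups for dhx8, dhx15, ddx23, ddx46, ddx39b and ddx42. It did not for dhx16, dhx38 and dhx35. The same count over all genes was not made, so this is not read as a trait of the helicases.

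The other genes of splicing and of the helicase families were read from lists of known partners. Of 34 branch-site and catalytic-step partners of these helicases, 32 were above 0 (49.1% of all genes were), with a median log2 fold change of 0.25. Without the block 6 were called higher, beside 0.114% of all genes, and with it 17, beside 0.649% of all genes. DESeq2 with no filter called 11 higher, beside 0.179% of all genes. For 17 all mutant libraries lay above all sibling libraries, beside 3.46% of all genes. This list was put together with earlier results of these data known, so its direction is no independent evidence. Snrnp200, the U4/U6-unwinding helicase of the U5 particle (Brr2 in yeast), rose to 202.1 ± 13.6 CPM in mettl16-/- tails against 98.2 ± 5.91 CPM in sibling tails (SD, n = 3 each), at a log2 fold change of 1.04 (SE 0.0953, adjusted p = 0.00403 in edgeR). It passed in 5 of the 6 fits that left out 1 library.

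Eftud2, the GTPase of U5, averaged 136.7 ± 16.1 CPM in mettl16-/- tails and 63.2 ± 5.71 CPM in sibling tails, a log2 fold change of 1.11 (SE 0.116, adjusted p = 0.01004 in edgeR). Prpf31 and prpf3, proteins of the U4/U6 particle, had log2 fold changes of 0.996 (SE 0.115) and 1.08 (SE 0.125), each with an adjusted p of 0.0140 in edgeR. Aqr, an RNA helicase of the intron-binding complex, had 0.78 (SE 0.0915, adjusted p = 0.0140 in edgeR), and crnkl1, a protein of the catalytic core, 0.70 (SE 0.103, adjusted p = 0.0380 in edgeR). Without the block, crnkl1 passed in 0 of the 6 fits that left out 1 library, eftud2 in 3, and prpf31, prpf3 and aqr in 2 each. With the block, these genes and snrnp200 each passed in all 3 fits that left out a replicate number.

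**Figure D4:**
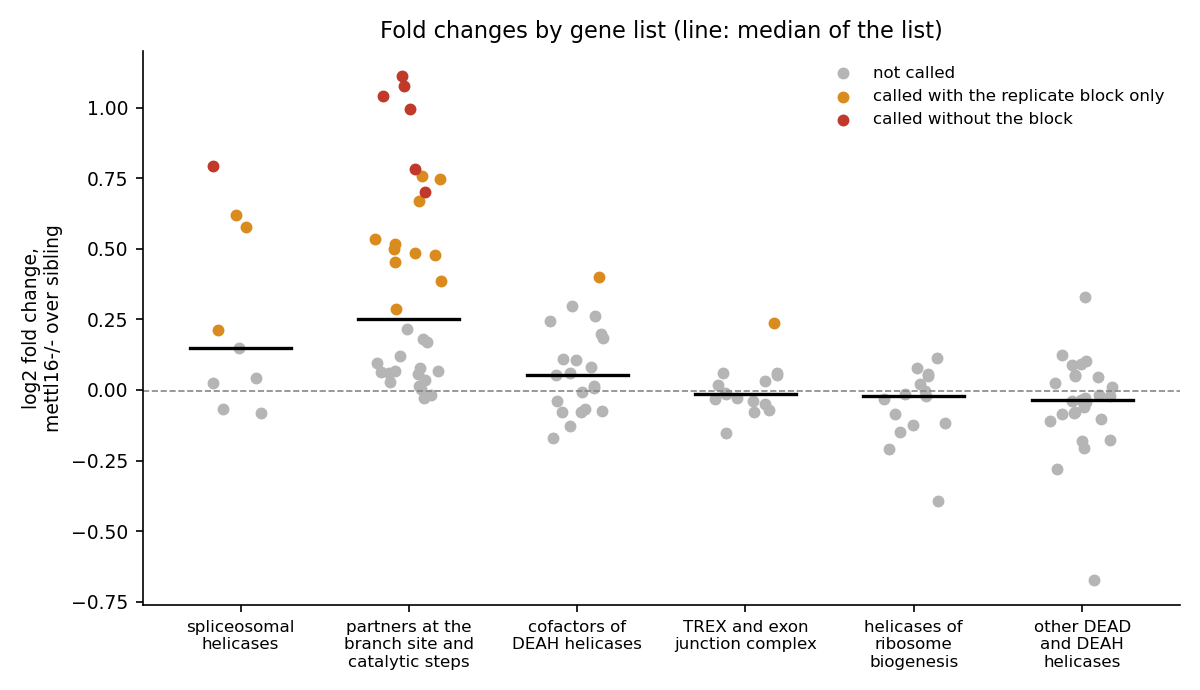
Log2 fold change (mettl16-/- over sibling) of every tested gene in the helicase set and in 5 lists of partners and other helicases, 1 point a gene, with a line at each list's median and a dashed line at the median of all genes tested; colours mark genes called without the block, with the block alone, or in neither. The medians are 0.15 for the 9 helicases, 0.25 for the branch-site and catalytic partners, and -0.02 and -0.04 for the helicases of ribosome biogenesis and the other DEAD and DEAH helicases.

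Cofactors of the DEAH helicases, most of them G-patch proteins that switch a helicase on, were 21 tested genes of which 13 were above 0, with a median of 0.05. In edgeR without the block 0 were called and 1 had an unadjusted p under 0.05, 0 were called by DESeq2 with no filter, and 1 was called with the block. At such an unadjusted p in edgeR without the block, 216 of the 18487 genes tested were higher and 186 lower. The shares of all genes called were 0.124% in edgeR without the block, 0.256% by DESeq2 with no filter and 1.04% with the block. At these shares, 0 or 1 call in a list of this size does not set it apart from other genes. The gene called with the block was tfip11, whose yeast counterpart Ntr1 is the activator of Prp43 in spliceosome disassembly. Tfip11 had 34.9 ± 3.60 CPM in mettl16-/- tails and 26.4 ± 2.12 CPM in sibling tails (SD, n = 3 each) with no overlap, a log2 fold change of 0.40 (SE 0.117) and an adjusted p of 0.9999 without and 0.00388 with the block in edgeR. With a replicate number left out, the blocked call held in 1 of 3 fits (adjusted p 0.0172 to 0.1485 in edgeR). All mutant libraries lay above all sibling libraries for 3.46% of all genes. The next by unadjusted p, cwf19l2 and rbm17, had 0.30 and 0.26 and were not called in either fit (blocked adjusted p 0.329 and 0.363 in edgeR).

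The mRNA export complex TREX, to which ddx39b belongs, and the exon junction complex, which the spliceosome leaves on the mRNA, had 15 tested genes with 6 above 0, a median of -0.01, and 0 called without the block by edgeR (1 with an unadjusted p under 0.05) or by DESeq2 with no filter. Of all genes, 0.124% were called without the block by edgeR, 0.256% by DESeq2 with no filter and 1.04% with the block. At an unadjusted p under 0.05 in edgeR without the block, 216 of the 18487 genes tested were higher and 186 lower. Eif4a3, the helicase that anchors the exon junction complex, had 120.5 ± 11.2 CPM in mettl16-/- tails and 102.2 ± 8.28 CPM in sibling tails (SD, n = 3 each) and was called with the block alone (log2 fold change 0.24, adjusted p = 0.0315 in edgeR). With a replicate number left out, eif4a3 was called in 1 of 3 blocked fits (adjusted p 0.0241 to 0.5705 in edgeR). Alyref, the export adaptor that UAP56 loads, had -0.15 with all mutant libraries below all sibling libraries and a blocked adjusted p of 0.312 in edgeR, and thoc1 of the THO complex had -0.07. All mutant libraries lay below all sibling libraries for 3.43% of all genes.

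The remaining helicase lists had medians close to that of all genes. The second of them also holds helicases that take part in splicing or in snRNP assembly, such as ddx5, ddx17 and ddx20. Of 15 helicases of ribosome biogenesis 5 were above 0, with a median of -0.02, and of 27 other DEAD and DEAH helicases 10 were above 0, with a median of -0.04. In both lists 0 genes were called by edgeR with or without the block and 0 by DESeq2 with no filter. The shares of all genes called were 1.04% with the block, 0.124% without it and 0.256% by DESeq2 with no filter. At these shares, 0 calls in lists of this size do not set them apart from other genes. At an unadjusted p under 0.05 in edgeR stood 0 genes of either list without the block. Of the 18487 genes tested, 216 were higher and 186 lower at such a p in that fit. With the block 2 of the 15 and 3 of the 27 stood there, where 9.20% of all genes did. The smallest unadjusted p values belonged to dhx33 (-0.39), ddx24 (-0.21) and ddx31 (-0.15) in the first list, and to 1 of the 2 identifiers named ddx19a (-0.67), dhx34 (-0.21) and ddx5 (0.10) in the second, all as log2 fold changes. Ddx19a was counted at 0.771 ± 0.207 CPM in mettl16-/- tails and 1.23 ± 0.607 CPM in sibling tails (SD, n = 3 each), where few reads support the value.

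**Figure D5:**
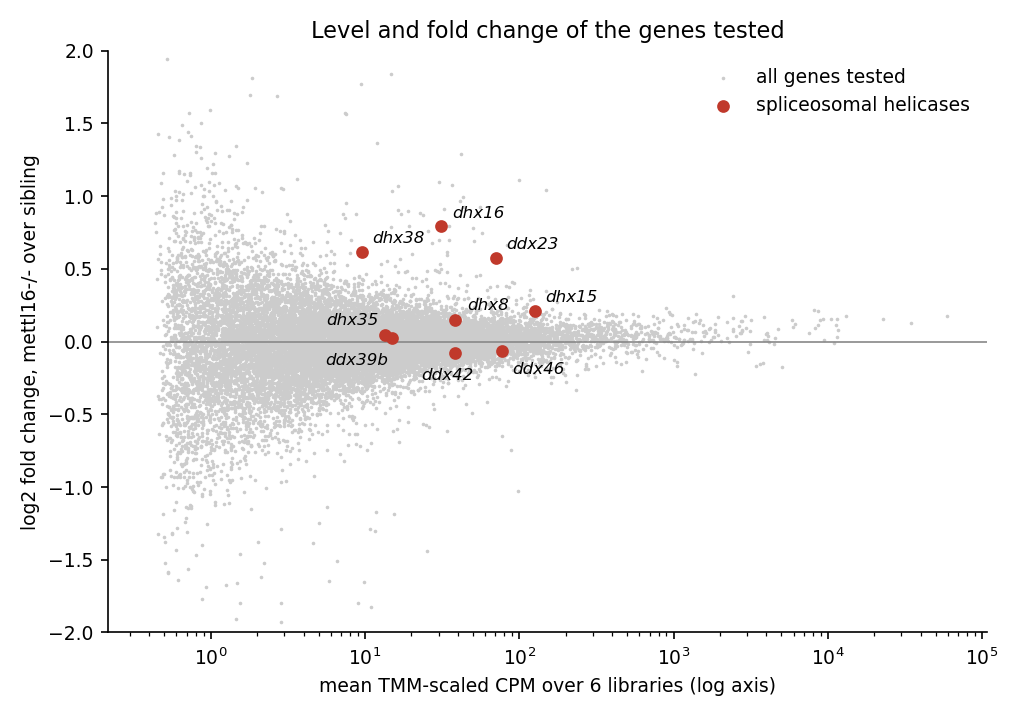
Mean level in CPM over the 6 libraries (horizontal, log axis) against the log2 fold change of mettl16-/- over sibling (vertical, limited to -2 to 2) for all tested genes in grey, with the 9 helicases labelled; 18 genes fall outside the plotted range. Dhx16 at 0.79, dhx38 at 0.62 and ddx23 at 0.58 stand above the other helicases, which lie between -0.08 and 0.21.

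Dhx16 had the smallest unadjusted p of the 9 in the fit without the block (4.36e-05 in edgeR over all genes), and ddx23 in the fit with it (6.32e-10, against 1.23e-09 for dhx16). Likeness was taken to dhx16. Over the 6 libraries, the genes whose log2 CPM followed it most closely were luc7l (Pearson r = 0.997), tmem182 (0.994), napsa (0.991), prpf3 (0.988) and sf3a3 (0.987), and 119 tested genes (0.644%) had r above 0.9. These r values are descriptions over 6 libraries in 2 groups, and a gene that differs between the groups takes part of its r from that difference. Among the helicases, ddx23 followed dhx16 with r = 0.914, dhx38 with 0.758, dhx15 with 0.664 and dhx8 with 0.587. Dhx35 had 0.278, and ddx39b, ddx46 and ddx42 had -0.0981, -0.131 and -0.324.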

How the data were processed

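The deposited values are whole-number read counts per gene. Per the labels and the study's methods, the authors filtered paired-end reads with fastp 0.18.0, removed reads that Bowtie2 mapped to ribosomal RNA, used HISAT2 to align the rest to GRCz11 and StringTie 1.3.1 to assemble transcripts. The step that made the counts, its use of strand and its treatment of reads shared by near-identical genes are not given in the sources used here, so the values of near-identical or overlapping genes are uncertain (ddx39b beside the 2 identifiers named ddx39a). Of 26375 identifiers 1178 are assembled loci and 23499 have a symbol; 2483 had 0 reads in all libraries. There were 0 unused columns of per-sample values.

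Symbols were matched through the gene name tables. The 18487 genes that passed filterByExpr were fitted together with TMM scaling and the robust quasi-likelihood F test in edgeR 4.0.16 (limma 3.58.1, R 4.3.3), with Benjamini-Hochberg adjustment over all of them and a threshold of 0.05. Intervals are 95% intervals of the fitted fold change. DESeq2 1.42.0, DESeq2 size factors, other low-count filters, a non-robust dispersion, each library left out and the replicate number as a block were alternatives; leaving a replicate number out of the blocked fit was added after seeing the data. The fit was also run on simulated counts with known changes. A shared effect of replicate number was built into those counts, so they cannot test whether the numbers pair the real libraries.

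In the blocked fit, replicate numbers were taken to pair the libraries, and no label says what a number shares. Deviations from the group means correlated at 0.586, 0.312 and 0.518 for same-numbered libraries and at -0.446 to -0.0362 for differently numbered ones. Deviations cancel out within a group, so positive same-number values push the others to negative ones, which are no separate evidence. The pairing was read from the same counts that the blocked fit tests. All members were named, together with mettl16, the called genes and the 3 genes of smallest unadjusted p in each other list, and the 5 genes most like the helicase with the smallest p. The members and lists were chosen with earlier results of these data known. Levels were not compared between genes, because no transcript lengths were used.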

Additional observations from a re-analysis of the deposited data

How the results depend on the processing

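Called genes numbered 23 without the block and 193 with the replicate block, which is the pairing of same-numbered libraries; DESeq2 called 60 with the same genes and 60 with no filter, and leaving out 1 library gave 3 to 21. With a replicate number left out, the replicate block called 232, 123 and 93 genes without number 1, 2 and 3. Of the helicases 1 was called without the block, 4 with the replicate block, 2 by DESeq2 with either filter (dhx16 and ddx23), 0 with a non-robust dispersion (dhx16 adjusted p = 0.0530 in edgeR), 0 to 1 without 1 library, and 2 to 3 with the block and a replicate number left out. The block changed no call of mettl16 or of the helicases other than ddx23, dhx38 and dhx15.

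The median log2 fold change of the helicases stayed on the same side of 0 under every alternative run. Of the values of single genes under the alternatives, 138 kept direction and side of the threshold, 9 passed it where the fit without the block did not, 6 lost it and 7 turned sign. All 6 losses were of dhx16, the 1 helicase called without the block, with a non-robust dispersion or with 1 library left out. The 138 include values of genes that were called in no fit. The sign changes were of uncalled log2 fold changes near 0. Without 1 library, ddx39b ran between -0.0731 and 0.109, ddx46 between -0.138 and 0.0391, and dhx35 between -0.0346 and 0.142. With the replicate block and a replicate number left out, ddx39b gave -0.0093 (number 2) and dhx35 gave -0.0523 (number 2) and -0.00096 (number 3). Their cause was not tested.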
